A study of Mus musculus with 10 samples.

Results

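MHC class I and antigen processing is described here through 10 genes: the heavy chains H2-K1, H2-D1, H2-T22, H2-T23 and H2-M3, the light chain B2m, and Tap1, Tap2, Tapbp and Psmb8, which supply and load the peptide. They were taken by symbol from a table of 52632 genes, and all 10 were present and passed the filter on low counts. RNA came from neural stem cells, grown as adherent cultures in EGF and FGF (20 ng/mL each) from the cortex of single mouse embryos at embryonic day 14.5. SMCHD1 is a chromatin protein that acts in gene silencing, and the study asked what the ATPase-domain mutation E147A does to that activity. Females were Smchd1GFP-E147A/+; XistdeltaA/+ (n = 2, litters 1 and 2) or Smchd1+/+; XistdeltaA/+ (n = 2, both litter 3). Males were Smchd1GFP-E147A/+; XY (n = 3, litters 1, 1 and 3) or Smchd1+/+; XY (n = 3, litters 4, 1 and 3). The mutant allele is also the GFP-tagged one, so tag and mutation cannot be told apart, and neither can genotype and litter in females. All embryos are labelled as F1 of a Castaneus (Cast) father and a 129/C57 F1 mother.

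MHC class I molecules show peptides from inside the cell to CD8 T cells. The immunoproteasome cuts proteins into peptides, the TAP transporter carries these into the endoplasmic reticulum, and tapasin holds TAP beside a waiting heavy chain until a peptide binds. The heavy chain leaves for the cell surface only with its light chain, beta-2 microglobulin. Interferon raises most genes of this route, and neural cells without interferon are known for little class I at their surface.

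The libraries held 20648916 to 44519020 counts each. All 10 neural stem cell markers looked at (such as Nes, Sox2 and Vim) passed the filter in these cultures, summing to 4825 to 6910 CPM (counts scaled to library size with TMM factors). Of 12 markers of microglia and other leukocytes, Trem2 was at 0 in every library, and 6, Trem2 included, had at most 3 counts in any library. Their sum was 1.16 to 1.59 CPM in female E147A/+, 0.617 to 1.08 in female +/+, 0.482 to 0.770 in male E147A/+ and 0.655 to 2.84 in male +/+. P2ry12, the only one of the 12 tested, gave 2.77 of the highest sum. Of 8 fibroblast and meningeal and 8 endothelial markers, all were tested; their sums are given beside the libraries they set apart. The sums of neuronal, astrocyte and oligodendrocyte-lineage markers were 24.6 to 74.4, 146.6 to 223 and 1359 to 2038 CPM. In female +/+ replicate 1, 4 Y-linked genes reached 1.75% of the male mean, against 0.0429% to 0.438% in the other females. The label of a Cast father went against the allele counts in part of the genome. Allelic counts were used for the 4 females, and alleles in males were not analysed here. Of 256 autosomal bins of 10 Mb, 72 had a median Cast share of 35% to 65% in both female +/+ libraries. Smchd1, itself on chromosome 17, had a Cast share of 0.379% and 0.111% in the female E147A/+ libraries and 48.8% and 47.6% in the +/+ libraries. At Smchd1, genotype and strain therefore cannot be told apart in females. The same holds over most of the MHC. There the median Cast share of 66 other genes was 0.303% and 0.0942% in E147A/+ and 47.7% and 48.1% in +/+. Female differences in total level of most genes there are thus also differences between cultures almost without and with Cast counts. Of the 10 genes 9 lie on the same chromosome, where the Cast share of each is given further on, and B2m lies on chromosome 2.

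The promoters of the classical heavy chains H2-K1 and H2-D1, the pair that stands out in the allele counts further on, and that of B2m are printed to show what they share. They are RefSeq sequences (GRCm38.p6), each from 250 bases before to 50 bases after the annotated start nearest the gene's own, read along its strand. They cover chr17:34000298-34000597 (minus strand), chr17:35262844-35263143 (plus strand) and chr2:122147437-122147736 (plus strand). Capitals mark 2 motifs searched on both strands, the kappa-B site GGGNNTTCC and the core of the interferon-stimulated response element in 2 spacings, GAANNGAAA (here as its reverse complement) and a longer form with GAAA on each side of the NN (in B2m). None of the marked matches overlap.
H2-K1: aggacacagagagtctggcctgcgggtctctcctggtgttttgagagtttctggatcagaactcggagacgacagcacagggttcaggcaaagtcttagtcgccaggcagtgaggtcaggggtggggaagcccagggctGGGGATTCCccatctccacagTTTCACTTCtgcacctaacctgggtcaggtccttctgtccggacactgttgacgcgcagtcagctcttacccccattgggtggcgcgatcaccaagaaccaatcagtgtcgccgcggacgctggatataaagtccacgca
H2-D1: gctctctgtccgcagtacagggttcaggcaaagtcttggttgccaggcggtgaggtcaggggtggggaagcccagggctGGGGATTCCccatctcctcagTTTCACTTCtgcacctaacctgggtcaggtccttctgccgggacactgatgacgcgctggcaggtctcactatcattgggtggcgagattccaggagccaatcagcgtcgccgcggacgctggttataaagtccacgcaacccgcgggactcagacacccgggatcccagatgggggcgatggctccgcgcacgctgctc
B2m: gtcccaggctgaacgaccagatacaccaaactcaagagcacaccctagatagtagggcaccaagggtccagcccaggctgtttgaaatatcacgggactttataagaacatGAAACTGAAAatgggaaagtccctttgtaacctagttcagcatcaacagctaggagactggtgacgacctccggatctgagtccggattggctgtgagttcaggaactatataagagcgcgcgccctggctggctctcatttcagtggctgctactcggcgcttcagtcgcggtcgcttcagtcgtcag
RefSeq held a promoter for 9 of the 10 genes, all but Tap2. The start used was within 14 bases of the gene's own in the table for H2-K1, B2m, H2-T22, H2-M3 and Tap1. It was 154 bases away for H2-T23, 364 for H2-D1, 474 for Psmb8 and 3579 for Tapbp. This distance does not show which start is used most, so any of the 9 stretches may not be that of the gene's main start. The kappa-B letters were found in 2 of these 9, H2-K1 (position -111 from the start) and H2-D1 (-171), against 5.82% of 32851 promoters. The interferon element was found as GAANNGAAA in 3, H2-K1 (-90), H2-D1 (-150) and H2-M3 (-101), against 7.52% of promoters. In the longer form it was found in another 3, B2m (-139), H2-T22 (-191) and H2-T23 (-124), against 3.44%. In either spacing it was thus in 6 of the 9 and in 10.4% of all promoters. A kappa-B site together with either spacing stood in 2 of the 9 and in 0.612% of all promoters, while the short CCAAT box was in 8 of the 9 and in 37.4% of all. In H2-K1 and H2-D1 the kappa-B, interferon and CCAAT letters stand in the same order, but at different distances from the start used. Their positions are therefore not compared between these genes. A match is a description of these letters and the absence of one says nothing about the factor.

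By length, B2m gave most RNA. Its level over all 10 libraries was 94.7 ± 21.8 CPM per kb of exon (SD, n = 10), and its lowest library (73.8) was above the highest of any other gene here. H2-K1 followed with 34.9 ± 12.3 CPM per kb and H2-D1 with 16.1 ± 8.99. The middle of the order was taken by Tapbp (6.68 ± 1.961), H2-T22 (4.60 ± 1.54), Tap1 (4.20 ± 2.43) and Tap2 (3.40 ± 1.79). The last 3 of these differed by less than their spread, and the ranges of all 4 over the libraries overlapped. H2-T23 (1.40 ± 0.605), Psmb8 (0.803 ± 0.585) and H2-M3 (0.730 ± 0.513) were lowest and also overlapped. From the lowest to the highest library the level differed 1.93-fold for B2m, 2.92-fold for H2-K1, 13.4-fold for Psmb8 and 29.1-fold for H2-M3.

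**Figure D1:**
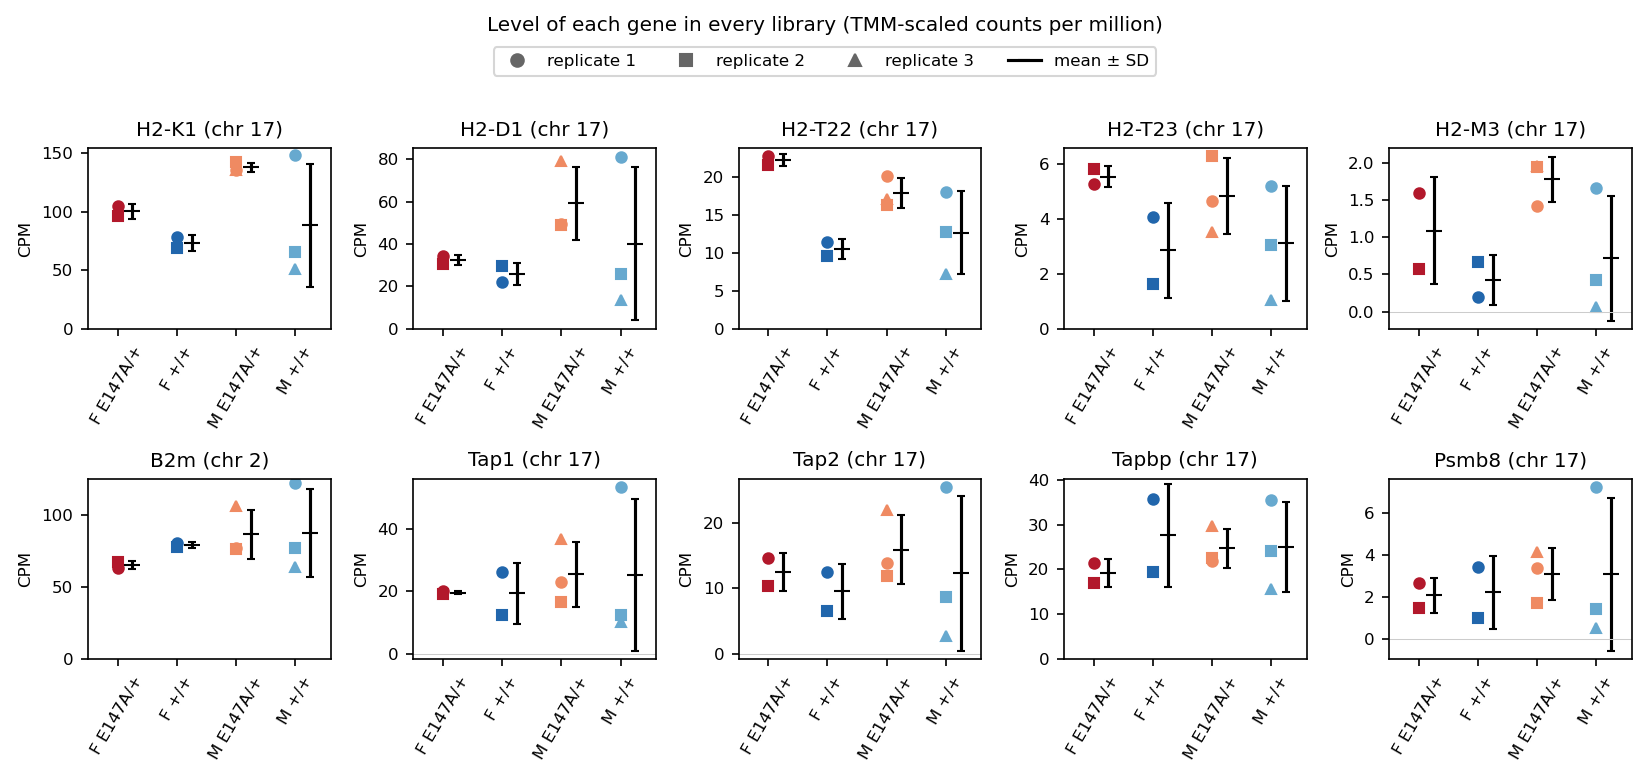
TMM-scaled CPM (y axis) of each gene in the female (F) and male (M) groups (x axis); points are single libraries, with the group mean ± SD beside them. Male +/+ replicate 1 is the highest library for 6 of the 10 genes and male +/+ replicate 3 the lowest for 9.

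H2-K1 (ENSMUSG00000061232, chromosome 17, 33996017 to 34000347, GRCm38) encodes a classical class I heavy chain, the part that holds the peptide. Its level was 105 and 95.9 CPM in the female E147A/+ libraries and 78.4 and 68.8 in the female +/+ libraries. Among males it was 136, 142 and 136 CPM in E147A/+ and 148, 65.9 and 50.8 in +/+. The female groups did not overlap, while in males the highest library of all was a +/+ culture, replicate 1, the only one from litter 4. Group means were 100.2 ± 6.11 against 73.6 ± 6.81 CPM (SD, n = 2 each) in females and 138 ± 3.90 against 88.4 ± 52.6 (SD, n = 3 each) in males. Over both sexes the fitted log2 fold change of H2-K1 was 0.54 (SE 0.26; quasi-likelihood test of edgeR, adjusted p = 0.821). Without male +/+ replicate 1 it was 0.84, and without male +/+ replicate 3 it was 0.40. In bulk RNA, fewer cells that express a gene and less RNA per cell cannot be told apart.

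H2-D1 (ENSMUSG00000073411, chromosome 17, 35262730 to 35267499) is the other classical heavy chain. It had 34.2 and 30.7 CPM in female E147A/+ and 22.1 and 29.5 in female +/+. In males it had 49.3, 48.9 and 79.2 CPM in E147A/+ against 81.3, 25.8 and 13.4 in +/+. Females again did not overlap, by a narrow gap, and male +/+ held both the highest and the lowest library. Over both sexes the log2 fold change came to 0.44 (SE 0.42, edgeR adjusted p 0.839). It was 0.96 without male +/+ replicate 1 and 0.24 without male +/+ replicate 3, so single libraries moved it more than 1.5 times either way.

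H2-T22 (ENSMUSG00000056116, chromosome 17, 36037128 to 36042747) encodes a nonclassical heavy chain that some gamma-delta T cells recognise. Its level was 22.8 and 21.6 CPM in female E147A/+ against 11.4 and 9.56 in female +/+, and 20.1, 16.4 and 17.1 in male E147A/+ against 18.1, 12.8 and 7.15 in male +/+. The female groups were well apart and the male groups overlapped. The log2 fold change was 0.79 (SE 0.24) over both sexes, 1.08 (SE 0.38) in females and 0.50 (SE 0.30) in males. The male value was 0.21 without male +/+ replicate 3 and 0.84 without male +/+ replicate 1. Its adjusted p in edgeR's test was 0.701 over both sexes. The difference between the female and male effects was 0.59 (SE 0.48, adjusted p 0.999 in edgeR's interaction test). Of its 80-base transcript windows, 23.2% occurred word for word in transcripts of other genes, mostly H2-T10, so its counts are uncertain.

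H2-T23 (ENSMUSG00000067212, chromosome 17, 36029773 to 36032855), the mouse Qa-1 heavy chain, presents leader peptides to natural killer cells. It had 5.27 and 5.80 CPM in female E147A/+ against 4.08 and 1.62 in female +/+, and 4.66, 6.30 and 3.52 in male E147A/+ against 5.21, 3.05 and 1.05 in male +/+. The female groups did not overlap and the male groups did. Over both sexes the log2 fold change came to 0.80 (SE 0.44, edgeR adjusted p 0.821), and 11.7% of its windows were shared with other genes. Leaving out single libraries moved it from 0.54 (without female +/+ replicate 2) to 1.21 (without female +/+ replicate 1).

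H2-M3 (ENSMUSG00000016206, chromosome 17, 37270220 to 37274484) presents N-formylated peptides of bacteria and mitochondria and was close to the detection limit. It had 1.59 and 0.578 CPM in E147A/+ females against 0.191 and 0.668 in +/+ females, and 1.42, 1.94 and 1.961 in E147A/+ males against 1.66, 0.423 and 0.0675 in +/+ males. Both sexes overlapped, and the lowest library rested on 2 counts. Over both sexes the log2 fold change came to 1.31 (SE 0.71, edgeR adjusted p 0.821). It ranged from 0.86 without female E147A/+ replicate 1 to 2.11 without male +/+ replicate 1.

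B2m (ENSMUSG00000060802, chromosome 2, 122147686 to 122153083) encodes the light chain common to all these molecules. Its level was 63.5 and 67.7 CPM in E147A/+ females against 81.0 and 78.2 in +/+ females. Among males it was 77.5, 76.6 and 106 in E147A/+ against 122, 77.3 and 64.1 in +/+. In females the order was the reverse of that of H2-K1, with both E147A/+ libraries below both +/+ libraries, and males overlapped. The log2 fold change was -0.15 (SE 0.19, edgeR adjusted p 0.877) over both sexes, -0.28 (SE 0.29) in females and -0.02 (SE 0.24) in males. The direction turned without male +/+ replicate 1, to 0.0096 over both sexes and 0.30 in males, and with litter as a covariate, to 0.069 and 0.31.

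The remaining 4 genes supply and load the peptide. Tap1 (ENSMUSG00000037321, chromosome 17, 34187553 to 34197225) and Tap2 (ENSMUSG00000024339, 34203527 to 34216321) encode the 2 chains of the peptide transporter. Tap1 had 20.0 and 19.2 CPM in female E147A/+ against 26.3 and 12.4 in +/+, and 23.1, 16.4 and 36.8 in male E147A/+ against 53.5, 12.3 and 10.2 in +/+. Tap2 had 14.6 and 10.4 against 12.5 and 6.60 in females and 13.9, 11.9 and 21.9 against 25.5, 8.64 and 2.70 in males. In both genes male +/+ replicate 1 was highest and male +/+ replicate 3 lowest, 5.27-fold apart for Tap1 and 9.43-fold for Tap2. Their log2 fold changes over both sexes were 0.01 (SE 0.47) and 0.38 (SE 0.51), with edgeR adjusted p of 0.997 and 0.883. Without male +/+ replicate 1 these became 0.60 and 0.94, and without male +/+ replicate 3 they became -0.18 and 0.14. For Tap1 the lowest value was -0.21, without female +/+ replicate 2. The genotypes overlapped in both sexes for both genes, and no longer did so in males without +/+ replicate 1. With litter as a covariate they were 0.82 and 0.99, and the values of H2-K1, H2-D1 and H2-T22 were 0.78, 1.02 and 0.77, none of which passed the threshold.

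Tapbp (ENSMUSG00000024308, 33915899 to 33929292) encodes tapasin, which bridges TAP and the heavy chain. It had 21.3 and 16.9 CPM in female E147A/+ against 35.7 and 19.5 in +/+, and 21.8, 22.6 and 29.6 in male E147A/+ against 35.5, 23.99 and 15.6 in +/+. The groups overlapped in both sexes (log2 fold change over both -0.27, SE 0.26, edgeR adjusted p 0.838). The value ranged from -0.46 without female +/+ replicate 2 to -0.017 without female +/+ replicate 1. Psmb8 (ENSMUSG00000024338, 34197721 to 34201454) is a catalytic subunit that replaces its constitutive partner in the immunoproteasome. It had 2.68 and 1.503 CPM in female E147A/+ against 3.44 and 1.00 in +/+, and 3.40, 1.74 and 4.16 in male E147A/+ against 7.24, 1.46 and 0.540 in +/+. Psmb8 overlapped as well, and its log2 fold change of -0.04 (SE 0.67, edgeR adjusted p 0.993) ranged from -0.36 without female +/+ replicate 2 to 0.78 without male +/+ replicate 1.

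Of the 10 genes edgeR called 0 over both sexes at a threshold of 0.05 on the adjusted p, where 0.0818% of the 17110 genes tested were called. The count was also 0 in females (0.0117% of genes passed), in males (0.0234%) and for the interaction (0.0%). It was 0 by DESeq2 and by limma-voom too. At an unadjusted p under 0.05 there was 1, H2-T22, over both sexes (5.9% of all genes) and in females (4.36%), 0 in males (3.44%) and 0 for the interaction (1.84%). In females both E147A/+ libraries were above both +/+ libraries for 4 genes, H2-K1, H2-D1, H2-T22 and H2-T23, as for 21.8% of all genes, and below them for B2m alone, as for 19.3%. In males 0 of the 10 had every E147A/+ library above every +/+ library, as had 3.2% of all genes, and 1.16% of all genes did so in both sexes; 0 of 10 is near these shares. The median log2 fold change over both sexes was 0.41 for the 10 genes and -0.01 for all genes tested. It was 0.36 against -0.01 in females and 0.43 against -0.02 in males. Single +/+ libraries moved the median of the 10 genes: over both sexes it was 0.89 without male replicate 1 and 0.19 without male replicate 3, and in males 1.24 and 0.018. In females it was 0.67 without +/+ replicate 1, 0.18 without +/+ replicate 2 and 0.20 without E147A/+ replicate 1. The male median was also 0.18 without male E147A/+ replicate 3 and 0.25 without male +/+ replicate 2.

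The male median of the 10 genes moved furthest without either of 2 +/+ cultures, replicates 1 and 3. Replicate 1 was 1.73-fold (B2m) to 7.26-fold (Psmb8) the mean of the other male +/+ libraries. Without it, all male E147A/+ libraries were above both remaining +/+ libraries for 8 of the 10 genes, all but B2m and Tapbp. Over all genes the share was 10.6%. Replicate 1 was itself the highest library for 6 of the 10 genes, so leaving it out favours such a count in them. Nothing is concluded from the gap to all genes. Without replicate 3, groups of all 10 genes still overlapped. Replicate 1 came from litter 4, which has no E147A/+ culture. Its leukocyte marker sum was 0.655 CPM, within the range of the E147A/+ males, and its summed interferon-response genes reached 157 CPM, with 155 in male E147A/+ replicate 3. Male +/+ replicate 3, the lowest for 9 of the 10 genes, had the highest sums of fibroblast and meningeal markers (32.6 CPM) and of leukocyte markers (2.84 CPM). The fibroblast and meningeal sum was 27.4 CPM in male E147A/+ replicate 3, of the same litter, and 6.15 to 14.1 in the other 8 libraries. Endothelial markers summed to 4.86 CPM in male +/+ replicate 3 and 4.55 in male E147A/+ replicate 3, against 1.24 to 3.04 in the other males. In females they summed to 1.71 and 2.89 CPM in E147A/+ (litters 2 and 1) and 4.84 and 5.24 in +/+ (both litter 3). All libraries of litter 3, of either genotype, were thus above all libraries of the other litters. The part of these markers in the class I values was not tested.

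Within a litter, males of both genotypes could be compared without replicate 1. In litter 1 (2 E147A/+ and 1 +/+) the log2 difference was 1.08 for H2-K1, 0.93 for H2-D1 and 0.51 for H2-T22. The same genes differed by 1.42, 2.55 and 1.25 in litter 3 (1 of each genotype). B2m differed by -0.00 and 0.73 in these litters, and Tapbp by -0.11 and 0.93. Of the 10 genes, 8 had positive values in both litters, as did 26.0% of all genes. Each litter has a single +/+ male, so these values have no replicate check among +/+ males, and that of litter 3 is replicate 3, in which 9 of the 10 genes were at their lowest.

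**Figure D2:**
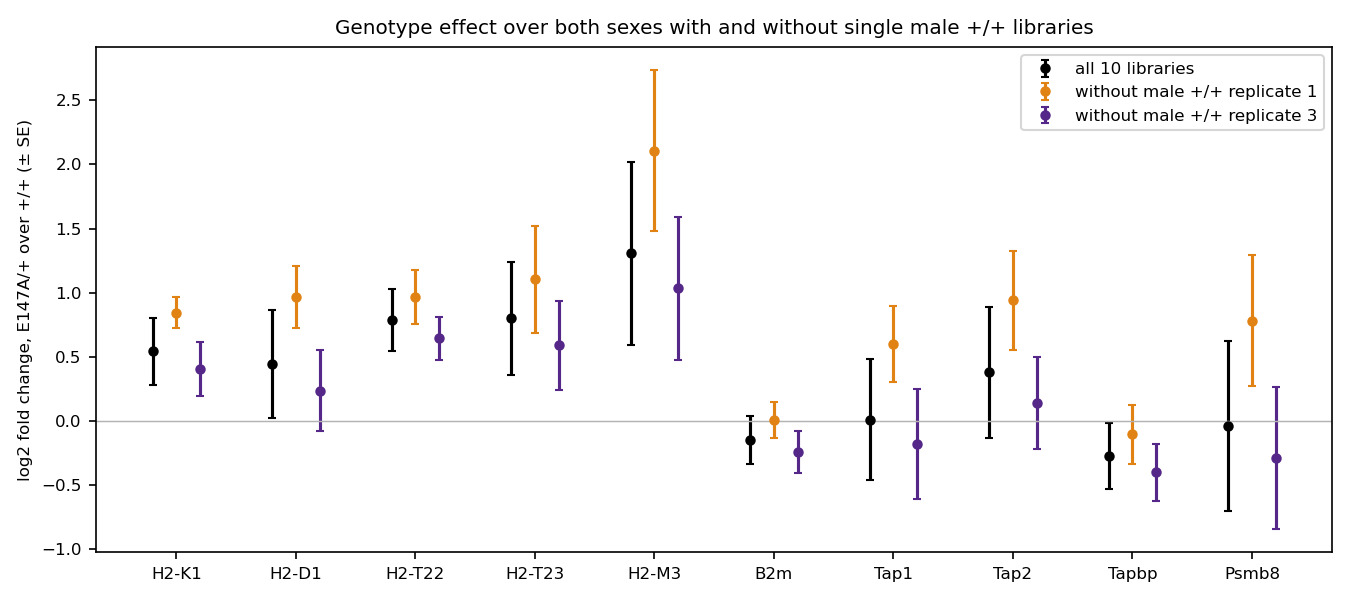
Log2 fold change of E147A/+ over +/+ across both sexes (y axis, ± SE) for each gene (x axis), from all 10 libraries and without either of 2 male +/+ libraries. Leaving out replicate 1 moves H2-D1 from 0.44 to 0.96 and leaving out replicate 3 moves it to 0.24.

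To set the chromosome 17 genes against B2m elsewhere, each was divided by B2m in the same library; no test was made of these ratios. The H2-K1 ratio was 1.65 and 1.42 in E147A/+ females against 0.968 and 0.879 in +/+ females. It was 1.75, 1.86 and 1.28 in E147A/+ males against 1.21, 0.853 and 0.792 in +/+ males. Every E147A/+ ratio was above every +/+ ratio of the same sex, male +/+ replicate 1 included. H2-K1 was the only gene of the 9 for which this held in both sexes, as it did for 1.22% of 17109 genes. The mean log2 difference was 0.73 in females, 0.78 in males and 0.75 over both, a 1.69-fold ratio, with a spread within groups of 0.26 (SD of log2 ratios). It lay between 0.69 and 0.85 as each library was left out in turn. In females the denominator, B2m, moved the other way (65.6 ± 2.99 against 79.6 ± 1.97 CPM, SD, n = 2 each). Genotype and strain go together at H2-K1 in females, and the ratio to B2m does not tell them apart.

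None of the other 8 ratios separated the genotypes in both sexes, though in females those of H2-T22, H2-T23 and H2-M3 differed by more than that of H2-K1. H2-D1 over B2m was 0.538 and 0.454 in female E147A/+ against 0.273 and 0.377 in +/+, and 0.635, 0.638 and 0.744 in male E147A/+ against 0.664, 0.334 and 0.210 in +/+. For H2-T22 the mean log2 difference was 1.37 in females and 0.57 in males, where E147A/+ replicate 3 (0.160) lay below +/+ replicate 2 (0.165). H2-T23 differed by 1.39 in females, without overlap, and by 0.86 in males, with overlap. H2-M3 over B2m was 0.0251 and 0.00854 in E147A/+ females against 0.00236 and 0.00854 in +/+ females. In males it was 0.0183, 0.0253 and 0.0184 against 0.0135, 0.00547 and 0.00105, so that males alone did not overlap, as for 3.03% of all genes. Its mean log2 difference over both sexes was 1.98, at counts of 2 to 69 per library. In females 4 of the 9 ratios were higher in both E147A/+ libraries, where 44.8% of all genes were. Tapbp over B2m was 0.293 ± 0.0606 against 0.345 ± 0.135 in females (SD, n = 2 each) and 0.284 ± 0.00871 against 0.281 ± 0.0348 in males (SD, n = 3 each).

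**Figure D3:**
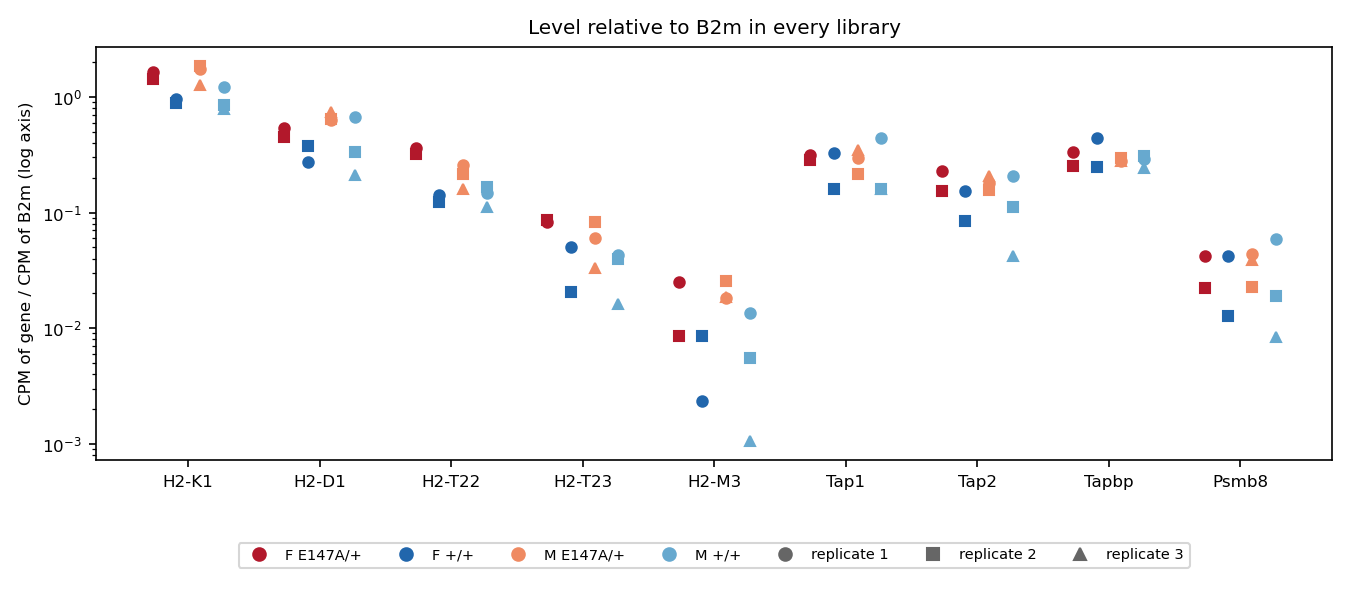
CPM of each chromosome 17 gene divided by CPM of B2m in the same library (log y axis) for each gene (x axis); points are single libraries coloured by sex and genotype. For H2-K1 the E147A/+ points (1.28 to 1.86) lie above the +/+ points (0.792 to 1.21) in both sexes.

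Allelic counts show which parental copy the RNA came from. The +/+ females carried both copies over the MHC, and there the shares of Tapbp, Tap1 and Psmb8 were near balance. Tapbp had a Cast share of 51.6% (95% Wilson interval 46.7 to 56.4) and 52.3% (46.0 to 58.5), and Tap1 50% (44.9 to 55.1) and 46.9% (40.2 to 53.6). Psmb8 had 48.7% (33.9 to 63.8) and 54.5% (28.01 to 78.7), the second on 11 counts, and Tap2 38.8% (30.8 to 47.4) and 36.7% (25.6 to 49.3), which did not pass the allele test. B2m on chromosome 2 had 48.4% (46.1 to 50.7) and 51.4% (49.2 to 53.6).

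The classical heavy chains were far from balance in the same libraries. H2-K1 had a Cast share of 12.7% (95% Wilson interval 10.7 to 14.99, 937 allelic counts) and 8.02% (6.50 to 9.86, 1010 counts). H2-D1 had 7.18% (4.32 to 11.7, 195 counts) and 7.67% (5.12 to 11.3, 287 counts). In both +/+ libraries most allelic counts of both genes were thus 129. The log2 ratio of Cast to 129 was -3.14 (SE 0.23) for H2-K1 and -3.63 (SE 0.15) for H2-D1. Their adjusted p in edgeR's allele test was 0.0174 and 0.00743. Among 3061 genes in the balanced bins, 7.25% passed that test and 3.85% did so with Cast lower. A total of 46 genes had a Cast share at or below that of H2-K1 in both libraries and 42 at or below that of H2-D1. Tap2 (log2 ratio -0.71, adjusted p 0.192) and H2-T22 (-1.26, adjusted p 0.229) did not pass in edgeR, nor did Tap1 (-0.08), Tapbp (0.11), Psmb8 (0.04) and B2m (-0.01). The H2-T22 ratio was -2 without +/+ replicate 1 and -0.63 without +/+ replicate 2. H2-M3 and H2-T23 had too few allelic counts to be tested.

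**Figure D4:**
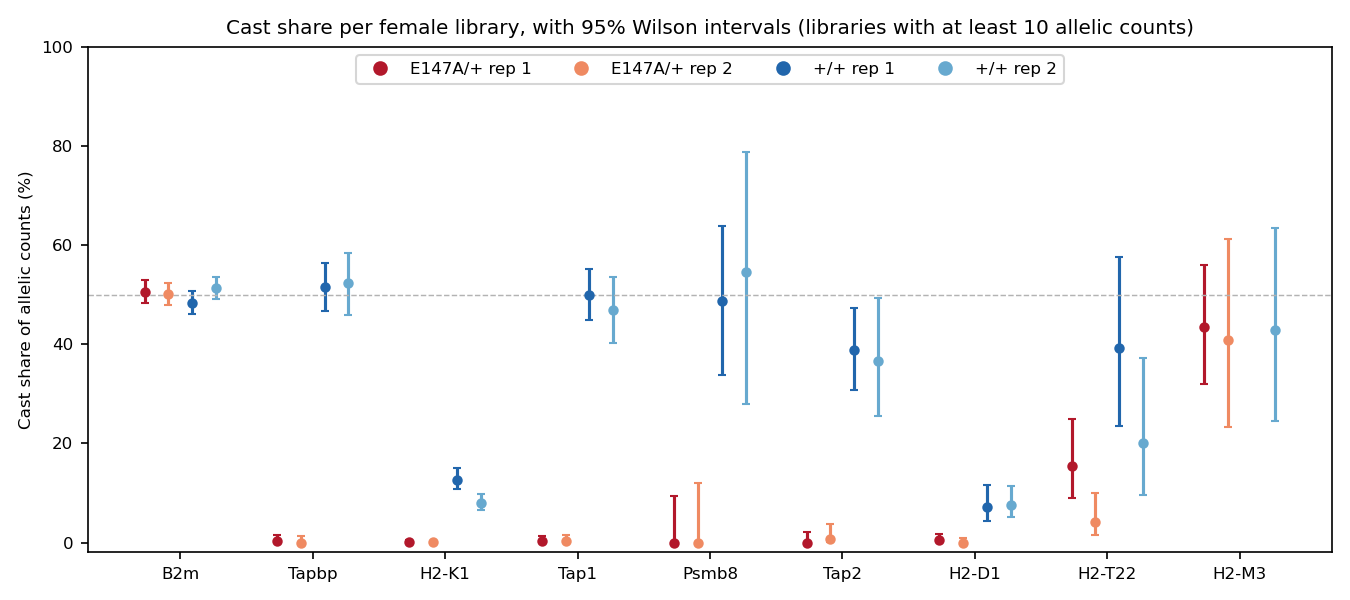
Share of allelic counts assigned to Cast (y axis, %) with 95% Wilson intervals for each gene (x axis) in the 4 female libraries; a library with under 10 allelic counts is left out. In +/+ the H2-K1 and H2-D1 points lie between 7.18% and 12.7%, and in E147A/+ the points of Tapbp, H2-K1, Tap1, Psmb8, Tap2 and H2-D1 lie between 0% and 0.694%.

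Female E147A/+ cultures had almost no Cast counts over the same genes. H2-K1 had a Cast share of 0.197% (95% Wilson interval 0.0767 to 0.506) and 0.0521% (0.00920 to 0.295). Tap1 had 0.251% (0.0444 to 1.41) and 0.260% (0.0460 to 1.46). H2-D1 had 0.452% in replicate 1 and 0 of 418 counts in replicate 2, which allows a share of up to 0.718%. Tapbp had 0.283% and 0 of 274 counts (up to 1.09%), Tap2 0 of 176 (up to 1.70%) and 0.694%, and Psmb8 0 of 37 and 0 of 28 (up to 8.11% and 10.7%). B2m kept both copies in these libraries, at 50.6% (48.3 to 53.0) and 50.2% (48.0 to 52.4). Intervals and these limits cover counting error only.

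The level assigned to 129 was set beside the total level; whether C57 reads count as 129 is not given in the sources used here. H2-K1 had 46.8 and 44.3 CPM assigned to 129 in E147A/+ and 26.0 and 23.9 in +/+, a 1.83-fold difference of means, while its total CPM differed 1.36-fold. For H2-D1 the 129-assigned level differed 1.58-fold and the total 1.26-fold. Tap1 had 9.17 and 8.85 CPM assigned to 129 in E147A/+ and 5.79 and 2.85 in +/+, a 2.09-fold difference of means, and 1.01-fold in total CPM (1.57-fold without +/+ replicate 1 and 0.744-fold without +/+ replicate 2). Tapbp had 8.13 and 6.33 against 6.24 and 2.95, a 1.57-fold difference, and 0.694-fold in total (0.983-fold and 0.536-fold). The +/+ libraries of these genes were far apart, and without +/+ replicate 1 or 2 the 129-assigned difference became 3.16-fold or 1.56-fold for Tap1 and 2.45-fold or 1.16-fold for Tapbp. For H2-K1 it became 1.91-fold or 1.75-fold. B2m, with both copies in both genotypes, differed 0.817-fold and 0.824-fold. These are means of 2 libraries each and were not tested. Where E147A/+ had almost no Cast counts, the number of copies assigned to 129 may differ between the genotypes. The 129-assigned folds of the chromosome 17 genes are therefore not read as differences per copy. Allelic counts made up 45.6% of total H2-K1 counts in E147A/+ and 37.9% in +/+, and 30.7% and 26.6% for H2-D1. In B2m these shares were 66.6% and 66.4%.

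The nonclassical genes H2-T22 and H2-M3 kept Cast counts in the E147A/+ females. H2-T22 had a Cast share of 15.4% (95% Wilson interval 9.03 to 24.99) and 4.08% (1.60 to 10.03) in E147A/+ and of 39.3% (23.6 to 57.6) and 20.0% (9.51 to 37.3) in +/+. Only 7.82% to 10.5% of its counts were allelic, and it is the gene with most shared windows. H2-M3 had 43.5% (31.9 to 55.9) and 40.9% (23.3 to 61.3) in E147A/+, on 62 and 22 counts, and 42.9% (24.5 to 63.4) in +/+ replicate 2. No 80-base window of H2-M3 was shared with another gene. Its nearest measured neighbour on the side of H2-K1, Gabbr1 (37045966 to 37075067), a subunit of the GABA-B receptor, had 0.979% and 0.962% in E147A/+ and 46.0% and 46.7% in +/+. H2-T23 gave 1 to 5 allelic counts a library, too few to read.

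The neighbours give the level against which to read these shares. Between the outermost of the 9 genes (chromosome 17, 33915899 to 37274484) the table held 301 other genes, of which 66 reached 10 allelic counts in all 4 females. Their median Cast share was 47.7% and 48.1% in the +/+ libraries and 0.303% and 0.0942% in the E147A/+ libraries. In +/+, 49 of the 66 lay between 35% and 65% in both libraries, and 0 were under 15% in both, as H2-K1 and H2-D1 were. In E147A/+, 53 of the 66 were under 5% in both libraries, and 5 (Vars2, Gtf2h4, Flot1, Tubb5 and Trim39) were at 35% or more in both. Those 5 lie between 35655634 and 36272247, the stretch that also holds H2-T22 and H2-T23; the other 8 were in between. For total counts, 120 of the 301 were tested and 0 passed over both sexes in edgeR, with 13 at an unadjusted p under 0.05 (5.9% of all genes did). Their median log2 fold change was 0.07 over both sexes, 0.17 in females and 0.01 in males, against 0.41, 0.36 and 0.43 for the 10 genes. Both sets moved with single libraries: without male +/+ replicate 3 the medians in males were 0.055 and 0.018, and in females the neighbours were at 0.062 without +/+ replicate 2.

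**Figure D5:**
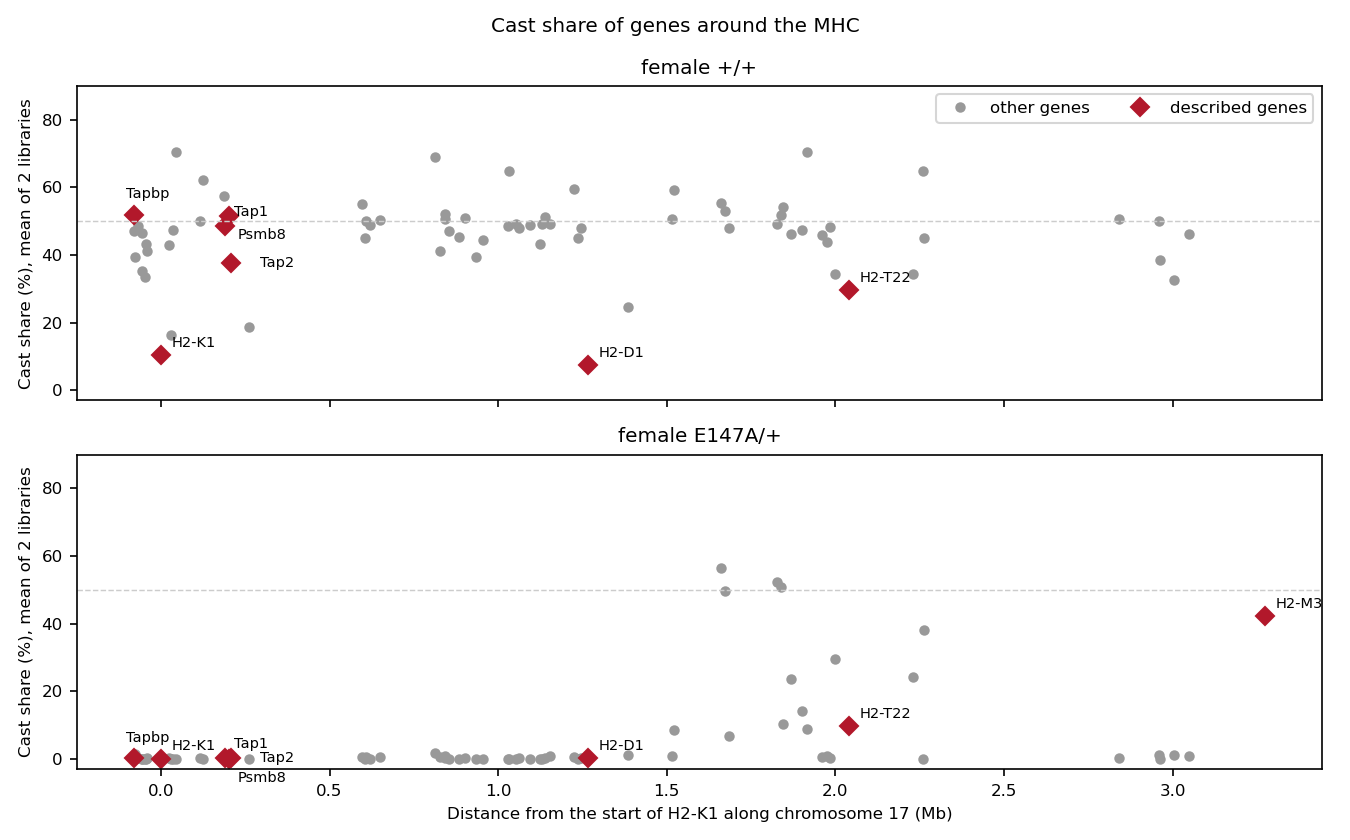
Mean Cast share of 2 libraries (y axis, %) against distance along chromosome 17 from the start of H2-K1 (x axis, Mb), in female +/+ (top) and female E147A/+ (bottom), for genes with at least 10 allelic counts in each of these libraries. Most grey points lie near 50% in +/+ and near 0% in E147A/+, and H2-K1 and H2-D1 lie lowest in the top panel.

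Sequence sharing between family members bears on both kinds of count. Of the 80-base windows of one transcript of each gene, 0.909% were shared with other genes for H2-K1 (all 14 with H2-D1), 6.43% for H2-D1 (mostly with H2-Q1), 0.816% for Tapbp, and 0% for B2m, Tap1, Tap2 and Psmb8. Counts of H2-D1, H2-T22 and H2-T23 can thus be split between copies, and the part of this in their levels was not tested.

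Other class I and class I-like heavy chains were measured as a list of 24, of which 15 were tested, 0 passed over both sexes in edgeR and 2 had an unadjusted p under 0.05 (5.9% of all genes did). Their median log2 fold change was 0.55 (0.32 without female E147A/+ replicate 1 and 1.01 without male +/+ replicate 1), and 12 of the 15 were positive. H2-Q1 (chromosome 17, 35320405 to 35325099) went the other way: it had 0.0462 and 0.0925 CPM in female E147A/+ against 1.37 and 0.462 in female +/+. Male E147A/+ had 0.0268, 0 and 0.166 CPM against 1.83, 0.470 and 0.405 in male +/+. It did not pass in edgeR (adjusted p 0.337). Its level in E147A/+ was so near 0 that no size of fold is read from it. The filter on low counts can be passed through the +/+ libraries alone, so these levels are given as a description only. All allelic counts of H2-Q1 in +/+ females, 10 and 9, were Cast. H2-Q7, a nonclassical Qa-2 heavy chain (35439155 to 35443773), had 13.0 and 11.7 CPM against 5.22 and 4.16 in females and 13.3, 14.1 and 5.25 against 9.002, 6.95 and 3.81 in males (log2 fold change 1.06, SE 0.33, edgeR adjusted p 0.705). Females did not overlap and males did.

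Chaperones and enzymes that assemble and load class I were listed as 17 genes, all tested, with a median log2 fold change of -0.17 and 5 positive. None passed in edgeR (0.0818% of all genes did), 1 of the 17 had an unadjusted p under 0.05, as did 5.9% of all genes, and 1 lies on chromosome 17. Their median was -0.052 without male +/+ replicate 3, -0.075 without female E147A/+ replicate 1 and -0.27 without male E147A/+ replicate 3. Tapbpl, the tapasin-related protein TAPBPR that edits peptides, had 1.34 and 1.27 CPM in female E147A/+ and 4.11 and 3.19 in female +/+. In males it had 2.44, 1.27 and 2.59 against 5.07, 2.96 and 1.52 (log2 fold change -1.04, SE 0.38, edgeR adjusted p 0.785). Tapbpl lies on chromosome 6. Its own Cast counts were 0 of 30 and 0 of 27 in female E147A/+ and 0 of 47 in female +/+ replicate 1. In female +/+ replicate 2 its Cast share was 49.02%, on 51 counts. Sec61g, a subunit of the translocon, was at -0.28 on the log2 scale (SE 0.13, edgeR adjusted p 0.821).

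Of the 14 proteasome genes 0 passed in edgeR (0.0818% of all genes did), and 0 had an unadjusted p under 0.05 (5.9% of all genes), a count near that share. Of 7 immunoproteasome subunits and regulators 3 were positive (median -0.11), with Psme4 at -0.20 (SE 0.16) and Psme1, part of the PA28 activator, at 0.20 (SE 0.17). Of 7 constitutive catalytic genes 1 was positive (median -0.14). Single libraries turned both medians, to 0.0037 without female +/+ replicate 1 for the first list and to 0.014 without male +/+ replicate 3 for the second, which was -0.25 without male E147A/+ replicate 3. Psmb5, the constitutive partner of Psmb8, had 64.9 and 86.2 CPM in female E147A/+ against 96.5 and 85.5 in +/+, well above the 1.00 to 3.44 CPM of Psmb8 in females. Its log2 fold change was -0.23 (SE 0.21), and that of Psmb7 was -0.32 (SE 0.21).

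Regulators of class I and the interferon route were looked at as well. Of 15 transcription factors 14 were tested and 8 were positive (median 0.01, from -0.033 without male +/+ replicate 2 to 0.036 without male E147A/+ replicate 1). Rfx5, which binds MHC promoters, was at 0.61 (SE 0.35, log2 fold change). Among 7 interferon receptor and kinase genes, Jak2 was at -0.27 (SE 0.12) and Ifngr1 at 0.15 (SE 0.13). None of these was called by edgeR after adjustment, and Jak2 alone of the 21 tested had an unadjusted p under 0.05, near the 5.9% of all genes that did.

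Of 32 interferon-response genes 26 were tested, 5 were positive and the median log2 fold change was -0.69, of the opposite sign to that of the 10 class I genes. It was -0.95 in females and -0.09 in males. Their summed level was 264 CPM in female +/+ replicate 1 and 106 to 157 in the other 9 libraries. Ifi44 had 5.38 CPM in female +/+ replicate 1 and at most 0.335 elsewhere (log2 fold change -2.23, SE 0.91). Gbp3, an interferon-induced GTPase, had 27.6 CPM in female +/+ replicate 1, 21.8 in male +/+ replicate 3 and at most 6.31 elsewhere (-1.99, SE 0.83). Neither gene passed in edgeR (adjusted p 0.814 and 0.821), nor did any of the 26, of which 4 had an unadjusted p under 0.05 (5.9% of all genes did). Without female +/+ replicate 1 the median was -0.049 over both sexes and 0.11 in females. Without male +/+ replicate 1 it was -0.34 over both sexes and 0.40 in males, and without male E147A/+ replicate 3 it was -0.43 in males. Male +/+ replicate 3, with that Gbp3 level, was the library in which 9 of the 10 class I genes were lowest. Its summed level of the list was 134 CPM, inside the range of 106 to 157, and its Ifi44 level was 0.135 CPM.

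Class II genes, which present peptides from outside the cell, were tested in 3 of 11 cases. H2-Ab1 (chromosome 17, 34257689 to 34269419) had 15.2 and 9.09 CPM in female E147A/+ and 2.01 and 2.23 in female +/+. In males it had 17.6, 14.8 and 5.52 against 14.8, 5.16 and 0.574, so that females did not overlap and males did (log2 fold change 1.70, SE 0.68, edgeR adjusted p 0.812). Its Cast share in +/+ females was 13.6% and 23.8%, and in E147A/+ females Cast had 0 of 638 and 0 of 384 counts. H2-Eb1 stayed under 1.22 CPM in every library (-0.83, SE 0.64).

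The mean of the 10 genes, each put on a common scale (z-score of log2 CPM), followed the male +/+ cultures at both ends: 1.29 in replicate 1 and -1.72 in replicate 3, with the other libraries between -0.74 and 0.89. Of 10411 well-expressed genes, those with the highest Pearson r to this mean over the 10 libraries were Hk1 (0.987), Prrc1 (0.970), Naa80 (0.970), Fkbp15 (0.968) and Fam3a (0.953). These correlations describe 10 libraries of unequal level and carry no test. Hk1, which starts glycolysis as hexokinase, had 191 CPM in male +/+ replicate 1 and 84.5 in replicate 3.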

How the data were processed

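Poly(A) RNA was sequenced with stranded 80 bp paired-end reads, per the labels' protocols. Per the submitters' processing notes, Trim Galore 0.4.4, HISAT2 2.0.5, featureCounts, R 3.5.1 and edgeR 3.24.0 were used with GRCm38/mm10; the use of strand and the method of assigning reads to 129 or Cast are not given in the sources used here. Reads of diverged class I alleles can align less often to another strain's genome, and the part of this in the Cast shares and in the total levels was not tested. For 10 libraries the authors deposited gene-level raw counts, and for the 4 females also the counts of each allele.

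Genes were kept by filterByExpr (17110 of 52632), scaled by TMM and tested with edgeR 4.0.16 (R 4.3.3): a quasi-likelihood F test with the 4 group means fitted jointly to the 10 libraries (6 residual degrees of freedom), with Benjamini-Hochberg adjustment over all genes tested and a threshold of 0.05. Cast and 129 counts of the 2 female +/+ libraries were tested in edgeR with library and allele as terms, for autosomal genes with at least 10 allelic counts per library in 10 Mb bins with a median Cast share of 35% to 65%; this leaves 1 residual degree of freedom per gene before moderation. Cast shares of the 10 genes are given with 95% Wilson intervals, and a share of 0 among them with a limit of 3 counts. Lengths and shared 80-base windows came from GENCODE vM21. The 10 genes and all lists were chosen with earlier results of these data known. Named were all 10 genes, the 2 lowest p of each list (1 such gene is not reported here), and the 5 genes most like their mean; Gabbr1, Smchd1, P2ry12, Trem2 and the 5 neighbours with 35% Cast were named after their values were seen. Both fits were tested on simulated data. At a simulated log2 change of 1, the genotype fit recovered 39 of 100 changed genes over both sexes, 5 in females and 19 in males. At a log2 change of 3 it recovered 97, 88 and 93. The allele fit recovered 71 of 100 at a change of 1 and 100 at 3. A count of 0 calls for genotype can thus miss changes of log2 1. Alternatives were RLE scaling, DESeq2 1.42.0, limma-voom (limma 3.58.1), other filters, litter as a covariate, a replicate block, and leaving out each library. Each culture came from 1 embryo, and no libraries agreed within sampling noise (chi-square per gene 34.0 to 193).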

Additional observations from a re-analysis of the deposited data

How the results depend on the processing

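None of the 10 genes passed the threshold over both sexes, in either sex or for the interaction in any of the fits tried. Fold changes were followed over both sexes for all 10 genes and within each sex for the 5 heavy chains and B2m, and 381 of these 405 values under alternatives kept their direction. The counts over all genes moved more. Against 14, 2, 4 and 0 genes (both sexes, females, males, interaction), DESeq2 called 113, 44, 46 and 2, and no filter gave 33, 8 and 14 for the first 3. Limma-voom called 29 over both sexes and 9 in males, and 10 counts in every library left 9 over both. With litter as a covariate the counts were 3, 0, 2 and 1, and with only the groups compared 1 in females and 1 in males. Leaving out each library in turn gave 2 to 12 over both sexes, 0 to 2 in females, 1 to 4 in males and 0 to 1 for the interaction.

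Replicate numbers were not taken as pairs, and same-numbered libraries are different embryos. In males those of replicate 2 share litter 1 and those of replicate 3 share litter 3, while the other same-numbered libraries come from different litters. Deviations of same-numbered libraries had correlations of -0.304 in females and -0.238, 0.416 and 0.0341 in males (replicates 1, 2 and 3). With the replicate block the counts were 5 over both sexes, 0 in females and 2 in males. With the female numbers crossed, added after the data were seen because of the correlation of -0.304, they were 6 and 0 over both sexes and in females.

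A total of 24 values reversed, none of them past the threshold in either form. B2m over both sexes was 0.069 with litter, and -0.24 to 0.0096 as libraries were left out (the latter without male +/+ replicate 1). In males B2m was 0.31 with litter, 0.020 with the replicate block, 0.020 with it crossed, and -0.20 to 0.30 as libraries were left out. Tap1 over both sexes ranged from -0.21 to 0.60 and Psmb8 from -0.36 to 0.78 as libraries were left out. Psmb8 was 0.31 in limma-voom, 0.93 with litter, 0.35 with the replicate block and 0.35 with it crossed. H2-T23 in females went from 0.96 to -0.11 with litter. Leaving out single libraries for the medians and the 129-assigned levels was also added after the data were seen. In the allele test, TMM factors gave 400 calls against 222 and moved B2m to 0.050, and a minimum of 20 counts gave 333; H2-K1 and H2-D1 passed in each fit that gave a test. With 2 or 3 cultures per group, a low allelic count in H2-T23, H2-M3 and Psmb8 limits what can be read, and alleles in males were not analysed here.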
